A study of Mus musculus with 4 samples.

Results

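The Hox genes studied here are the 39 protein-coding genes whose mouse symbol starts with Hoxa, Hoxb, Hoxc or Hoxd followed by a number, out of 21900 protein-coding genes in the RefSeq table of GRCm38.p6, the assembly called mm10. The rule goes by name and uses no measured value, although Hox genes were taken up with earlier results of these data known. Hox genes encode homeodomain transcription factors that give cells along the body axis their positional identity. They lie in 4 clusters, each gene has a paralog number shared with its relatives in the other clusters, and within a cluster all genes are transcribed in the same direction, with low numbers at the 3′ end (used in the anterior body) and high numbers at the 5′ end (used in the posterior body and the distal limb). Adult fat keeps such a positional code: depots differ in the Hox genes they express, and Hoxc9 and Hoxc10 are known as genes of subcutaneous fat. N6-methyladenosine (m6A) is a methyl mark on adenosines of mRNA, written by the METTL3 and METTL14 complex and removed by FTO and ALKBH5.

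The tissue was inguinal white adipose tissue, the subcutaneous fat of the groin, of male C57BL/6 mice aged 23 weeks with obesity from a high-fat diet. One group received vehicle and the other entacapone, a catechol-O-methyltransferase inhibitor also described as an inhibitor of FTO, and strain, sex, age and diet were the same in both. Each treatment gave 1 input library and 1 m6A immunoprecipitate (IP), and whether a library holds 1 animal or a pool is not given in the sources used here. With 1 library of each kind nothing could be tested over samples, and each difference below lies between 2 peak lists. In bulk tissue, fewer cells of a type and less RNA per cell cannot be told apart.

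The vehicle list held 22860 peaks and the entacapone list 31856, which is 1.39 times as many, and the inputs held 24548212 and 33164576 gene-assigned counts. The input tables name genes by Ensembl identifiers that were paired with 0 symbols by the tables used here, so the RNA level of the Hox genes was not analysed here and a missing peak cannot be told apart from a transcript that is scarce or absent. Markers were looked up through their peaks, to be read against the 40.2% (vehicle) and 49.0% (entacapone) of all protein-coding genes with one. White adipocyte markers carried a peak in 5 of 10 cases in the vehicle list and 7 of 10 in the entacapone list, Lep and Pparg among them in each, whereas Adipoq, Fabp4 and Cfd had none in either. All 3 subcutaneous depot genes, Tbx15, Shox2 and En1, had peaks in each list, 11 in total per list. Wt1, Upk3b and Msln of visceral fat and mesothelium and Ucp1 of brown fat had none. Endothelial markers had a peak in 1 of 4 cases in the vehicle list and 4 of 4 in the entacapone list (2 and 18 peaks), and lymphocyte markers in 4 and 5 of 6 (9 and 18 peaks). Skeletal muscle markers had one in 3 of 8 in each list, with 7 and 18 peaks, Myh4 in the vehicle list alone and Ttn in the entacapone list alone, and macrophage markers in 3 and 2 of 4. For preadipocytes and fibroblasts the numbers were 3 and 4 of 6, for skin or gland epithelium 3 and 5 of 5, for nerve with Schwann cells 2 and 3 of 4, for brown fat 1 of 5 in each list, and for visceral fat with mesothelium 1 of 4 in each list. The part of other cell types in the Hox results was not tested.

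Sequences were available for the promoter windows of 22 Hox genes, 24 windows of 300 bases that run from 250 bases before to 50 bases after a start, from RefSeq with build GRCm38.p6. Peaks overlapped 2 of these windows in the vehicle list (8.33%) and 3 in the entacapone list (12.5%), against 4.14% and 6.67% of the windows of all protein-coding genes. Those 3 windows are shown because they are where the letters under a Hox peak can be read. They are written 5′ to 3′ on the strand of the gene, with bases under a peak in capitals, and for Hoxd3 and Hoxc4 these are the bases that the peaks of both lists have in common. The capitals can be off by 1 base because the lists do not say whether they count from 0 or 1.
Hoxd3 promoter window: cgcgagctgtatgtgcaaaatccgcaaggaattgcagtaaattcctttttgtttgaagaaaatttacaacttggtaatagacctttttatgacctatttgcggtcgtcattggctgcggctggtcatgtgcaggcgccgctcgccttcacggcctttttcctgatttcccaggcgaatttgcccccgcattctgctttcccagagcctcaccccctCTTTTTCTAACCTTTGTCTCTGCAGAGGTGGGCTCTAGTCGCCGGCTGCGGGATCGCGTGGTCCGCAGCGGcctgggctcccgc
Hoxa5 promoter window: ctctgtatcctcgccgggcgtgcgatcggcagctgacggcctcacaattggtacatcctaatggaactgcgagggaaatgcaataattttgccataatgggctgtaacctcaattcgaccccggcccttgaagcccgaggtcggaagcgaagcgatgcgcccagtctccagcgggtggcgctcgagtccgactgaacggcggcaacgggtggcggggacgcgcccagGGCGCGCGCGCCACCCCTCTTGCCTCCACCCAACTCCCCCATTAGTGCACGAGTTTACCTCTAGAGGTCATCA
Hoxc4 promoter window: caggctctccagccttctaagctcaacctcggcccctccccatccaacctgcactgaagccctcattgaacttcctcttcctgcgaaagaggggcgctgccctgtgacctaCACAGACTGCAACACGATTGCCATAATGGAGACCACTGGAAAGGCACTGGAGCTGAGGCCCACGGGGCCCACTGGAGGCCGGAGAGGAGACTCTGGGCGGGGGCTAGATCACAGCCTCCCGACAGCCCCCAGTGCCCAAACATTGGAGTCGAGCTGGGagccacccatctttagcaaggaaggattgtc

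The Hoxd3 window lies at chr2:74711743-74712042 on the plus strand, the Hoxa5 window at chr6:52204538-52204837 on the minus strand and the Hoxc4 window at chr15:103034145-103034444 on the plus strand. The Hoxd3 peaks straddled the annotated start, with 94 bases of the vehicle peak and 71 of the entacapone peak in the window. The start in the Hoxc4 window is 16298 bases inside the gene span, a second start of that gene. In Hoxa5 the capitals are the 73 bases, 18.2% of the entacapone peak, that reach into the window, and the rest of that peak lies further into the gene. Of the m6A consensus only the forms GGACT and GGAC, which overlap, were searched for, on both strands. Other forms of it were not searched for, so the counts below do not show that the peak parts lack the consensus. GGACT occurred 0 times in the peak parts of these windows and GGAC occurred at 1 place, on the antisense strand under the Hoxd3 peaks. Over the full 300 bases GGACT was held by 41.7% of Hox windows and 45.5% of all 32851 windows, and GGAC by 83.3% and 87.7%. A match describes letters and marks no methylated site, and a missing match says only that these letters are not in the stretch searched.

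Genes with middle paralog numbers had peaks, and those with the highest numbers had none. In the vehicle list 46 peaks lay in 23 of the 39 Hox genes, and in the entacapone list 58 peaks lay in 26. These are 59.0% and 66.7% of the Hox genes, against 40.2% and 49.0% of all protein-coding genes. With a peak in either list there were 26 (66.7%, against 51.5%). Peaks were placed by their midpoint, and where spans overlapped the shorter gene took the peak. Spans of several Hox genes held 10 of the vehicle and 14 of the entacapone Hox peaks, so counts of single genes there depend on that choice. The 13 genes with no peak in either list included all 9 members with paralog numbers 11, 12 and 13, and Hoxb9. Of the genes with numbers 2 to 10 every one but Hoxb9 carried a peak in at least 1 list. The 9 genes with numbers 11 to 13 pattern, as a group, the posterior body and the distal limb. They had 0 peaks also by any overlap, by every span that holds a peak, and with 1 kb added to the spans. The other alternatives drop peaks or change only what counts as shared, so they could not have added a peak. Hox genes with a peak had a median span of 4.42 kb and those without one of 2.69 kb, and a longer span can hold more peaks.

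**Figure D1:**
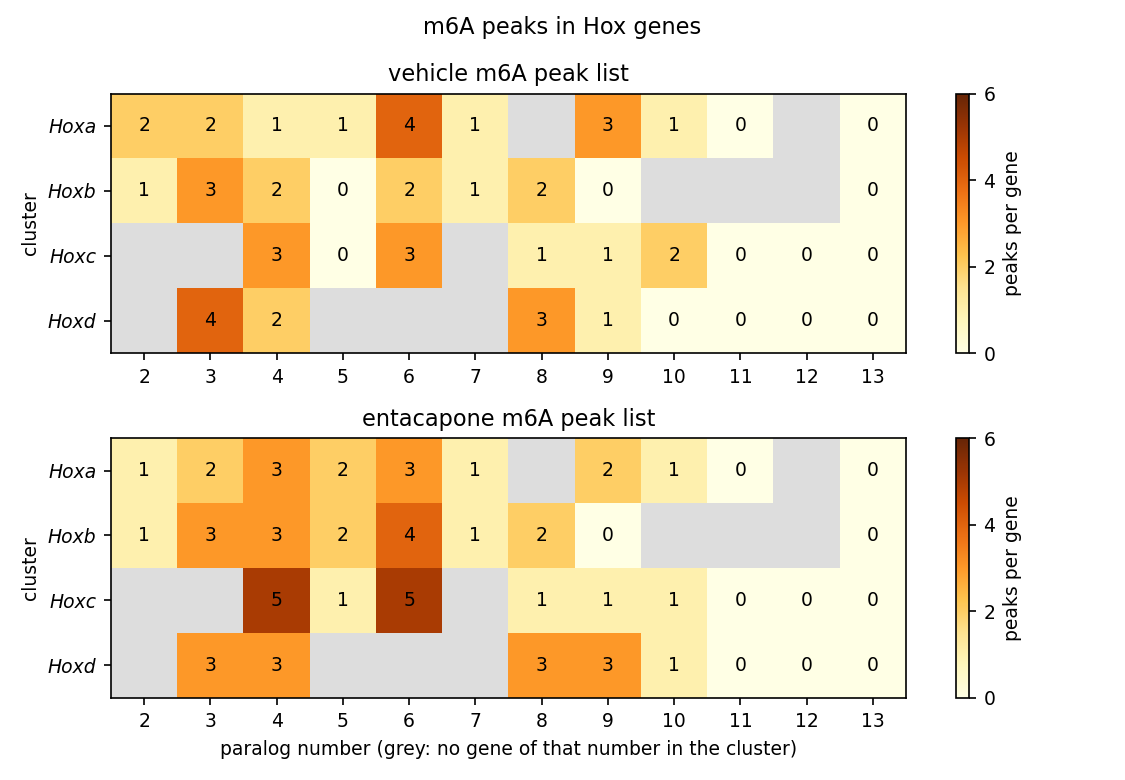
Number of m6A peaks per Hox gene, with paralog number across and cluster down, for the vehicle list (top) and the entacapone list (bottom); paralog numbers from 2 on are drawn and grey cells have no gene. Numbers 11 to 13 hold 0 peaks in every cluster, and the largest count is 5 in the entacapone list, in Hoxc4 and Hoxc6.

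Hoxa, on chromosome 6, held 15 peaks in each list over 8 of 11 genes. Hoxb, on chromosome 11, held 11 vehicle and 16 entacapone peaks, and Hoxb8 was its last gene with a peak. Hoxc, on chromosome 15, held 10 and 14, and Hoxd, on chromosome 2, held 10 and 13. Peaks ended at Hoxa10 and Hoxc10 in both lists, and in Hoxd at Hoxd9 in the vehicle list and Hoxd10 in the entacapone list. In Hoxb the genes beyond Hoxb8, Hoxb9 and Hoxb13, had none.

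**Figure D2:**
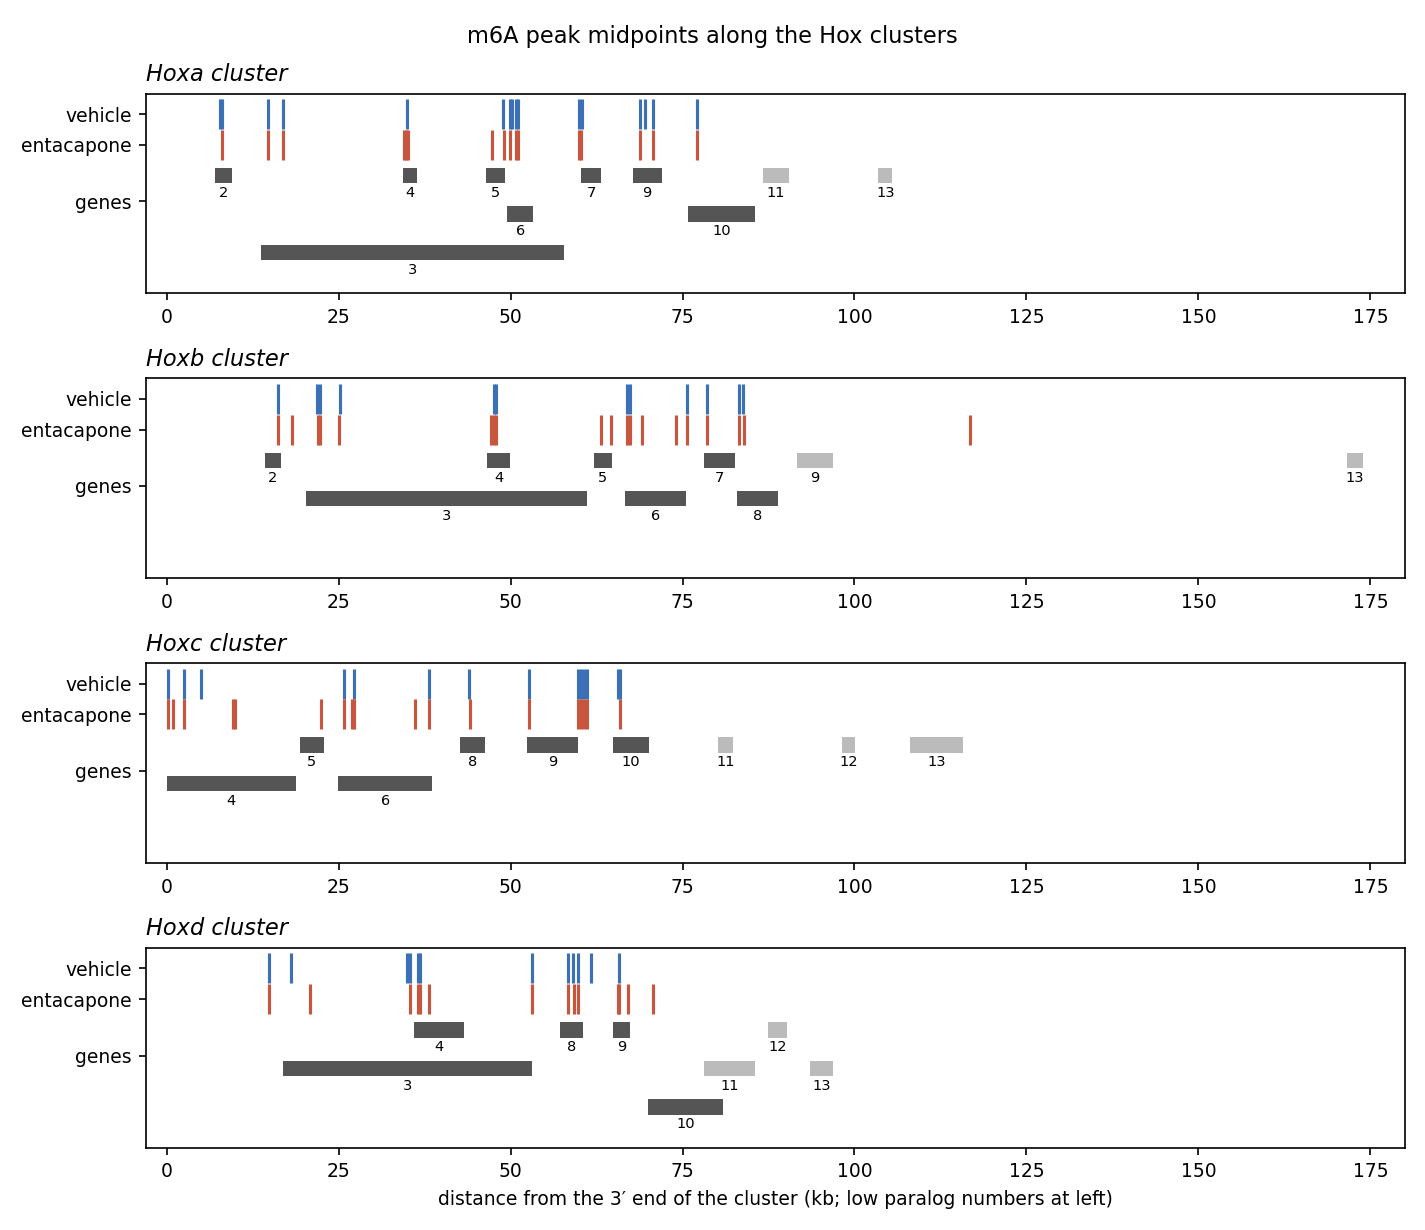
Midpoints of m6A peaks (ticks, vehicle in blue and entacapone in red) along each Hox cluster, as distance in kb from its 3′ end, with gene spans as bars labelled by paralog number, dark where a peak lay in either list, for numbers from 2 on. The light bars of numbers 11 to 13 have no tick, and in Hoxc, which has no gene below number 4, ticks start at the 3′ end.

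Among the genes of the anterior end, paralog group 2 was covered by Hoxa2 and Hoxb2, which act in hindbrain and neural crest. Hoxa2 had 2 vehicle peaks and 1 entacapone peak, and the vehicle peak at chr6:52163076-52163153, with a fold of 3.73, had no counterpart, while the entacapone peak had a fold of 4.38. Hoxb2 had 1 in each list, at chr11:96352029-96352152 where the vehicle fold was 6.10, and at chr11:96352017-96352125, where the entacapone fold was 6.70. Fold here means the number the authors deposited with each peak, read as linear IP over input enrichment, and it places a peak only within its own list. The Hoxb2 peaks ranked at percentiles 89.9 and 96.0 of their lists, high in each. Group 3 genes have the longest spans, up to 44.0 kb in Hoxa3, and enclose other Hox genes. With peaks counted for every span that holds them, Hoxa3 had 8 vehicle and 10 entacapone peaks, Hoxb3 had 5 and 6, and Hoxd3 had 6 in each list. After peaks of the enclosed genes were assigned to those genes, Hoxa3 kept 2 peaks in each list and Hoxb3 kept 3 in each. Hoxd3 then had 4 vehicle and 3 entacapone peaks. The highest folds were 5.54 and 6.34 in Hoxa3, 3.32 and 3.56 in Hoxb3, and 5.14 in the vehicle list in Hoxd3. In Hoxd3 the fold was highest in an entacapone peak with no vehicle counterpart, chr2:74744198-74744412, with a fold of 8.46 and a percentile of 98.8. Hoxd3 also had vehicle peaks at chr2:74730094-74730178, of fold 3.59, and chr2:74746987-74747060, of fold 4.59, that the entacapone list lacked. The first of these lies close past the 3′ end of the enclosed Hoxd4. With 1 kb added to the spans, Hoxd3 had 2 peaks in each list and Hoxd4 had 4 in each.

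Genes with numbers 4, 5 and 6, which pattern the neck, shoulder and upper trunk, had more peaks in the entacapone list in 9 of 10 cases. Hoxa4 had 1 vehicle and 3 entacapone peaks, Hoxb4 2 and 3, Hoxc4 3 and 5, and Hoxd4 2 and 3. Hoxa5 had 1 and 2, Hoxb5 0 and 2, and Hoxc5 0 and 1. Hoxb6 had 2 and 4 and Hoxc6 3 and 5, and Hoxa6 was the exception with 4 and 3. In total the 10 genes held 18 vehicle and 31 entacapone peaks. Of all protein-coding genes with a peak, 55.3% had more entacapone than vehicle peaks. This grouping of numbers was made after the counts were seen, so it describes where the extra peaks lay and supports nothing further. When each list was reduced to its 22860 peaks of highest fold, 5 of the 10 genes had more entacapone peaks and 3 had fewer, and the totals were 18 and 23. That setting removes 8996 entacapone peaks of low fold, up to 2.39, and no vehicle peak. Hoxa4, Hoxa5, Hoxb4, Hoxb5 and Hoxb6 kept their entacapone counts there, Hoxc4 went to 3, Hoxc5 to 0, Hoxc6 to 2 and Hoxd4 to 1.

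The peaks of these genes in the entacapone list alone were not all of low fold. In Hoxa4 the peak in the entacapone list alone, chr6:52189826-52189913, had a fold of 3.64, and the 1 vehicle peak of fold 3.59 overlapped the other 2 entacapone peaks, of 4.38 and 4.61, so that a single vehicle interval faced 2 entacapone intervals. In Hoxa5 the entacapone list held chr6:52202550-52202692 with a fold of 2.83 beside a shared peak of 3.38 and 4.95. In Hoxb4 it held chr11:96321100-96321224 with 2.55 beside shared peaks of up to 4.47 and 5.53. In Hoxb6 it held chr11:96294139-96294237 with 3.30 and chr11:96299081-96299176 with 4.58. In these 4 genes every vehicle peak had an entacapone counterpart.
Hoxc4 and Hoxc6 lie furthest 3′ in Hoxc with Hoxc5. In the entacapone list alone, Hoxc4 had chr15:103026817-103026910 at 5.12, chr15:103027129-103027194 at 5.07 and chr15:103035929-103036012 at 4.05, and its vehicle peak chr15:103031857-103031953 at 4.14 had no counterpart. In Hoxc6 the entacapone-alone peaks were chr15:103000744-103000814 at 2.65 and chr15:103009840-103009937 at 1.85. Its peak near the start ranked at percentile 92.2 of the vehicle list (fold 6.48) and 36.9 of the entacapone list (2.65). A peak near the end of Hoxb6 likewise ranked at 89.7 and 31.1 (6.08 and 2.47). Hoxd4 had an entacapone-alone peak, chr2:74726976-74727040, at 2.08 beside shared peaks of up to 3.68 and 4.39. Hoxa6 lacked in the entacapone list the vehicle peak chr6:52205523-52205698 of fold 4.50, and its highest folds were 6.70 and 5.05.

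Hoxb5 and Hoxc5 were, with Hoxd10, the 3 Hox genes with peaks in the entacapone list alone, or 7.69% of the 39, against 11.3% of all protein-coding genes. The Hoxb5 peaks lay at chr11:96303593-96303678 with a fold of 3.86 and at chr11:96305096-96305243 with a fold of 4.91. The Hoxc5 peak, chr15:103014388-103014477, had a fold of 1.70 and ranked at percentile 3.55, near the bottom of its list. The Hoxd10 peak, chr2:74694379-74694458, had a fold of 6.89 and ranked at percentile 96.4. Hoxd10, which acts in limb and lumbar spinal cord, thus entered by a peak of high fold, and Hoxc5 by one of low fold. There were 0 Hox genes with peaks in the vehicle list alone, against 2.45% of protein-coding genes.

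All 5 genes with numbers 7 and 8, which pattern the trunk, had equal numbers in the lists, as did 29.3% of all protein-coding genes with a peak, and this grouping too was made after the counts were seen. Hoxa7, Hoxb7 and Hoxc8 had 1 peak in each list, Hoxb8 had 2 and Hoxd8 had 3, and all 8 peaks of each list overlapped a peak of the other. At 22860 peaks per list these genes had 8 vehicle and 5 entacapone peaks. The highest folds were 1.68 and 1.92 in Hoxa7, 2.52 and 2.67 in Hoxb7, 2.92 and 4.75 in Hoxb8, and 2.50 and 3.11 in Hoxd8. The 3 Hoxd8 peaks lay at nearly the same places in both lists. Midpoints were 722, 1379 and 2177 bases from the start of the span in the vehicle list and 707, 1372 and 2164 in the entacapone list. The 2 Hoxb8 peaks had midpoints 918 and 336 bases from its 3′ end in the vehicle list and 943 and 337 in the entacapone list.

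Among numbers 9 and 10 the lists differed in single genes. Hoxa9 had 3 vehicle and 2 entacapone peaks, and its vehicle peak of highest fold, chr6:52224852-52224930 at 4.56, had no counterpart, while the highest entacapone fold was 2.82. Hoxc9 had 1 in each list. Hoxd9 had 1 of fold 2.88 in the vehicle list and 3 in the entacapone list, where chr2:74697988-74698162 at 3.69 and chr2:74699553-74699602 at 2.85 had no counterpart. Hoxa10 had 1 in each list, at chr6:52232353-52232658 with a fold of 1.91 and chr6:52232348-52232676 with 2.51. Hoxc10 had 2 vehicle peaks, chr15:102970851-102971096 and chr15:102971230-102971296, and the first overlapped its only entacapone peak, chr15:102970819-102971096. The second, at 2.45, had no counterpart. Hoxc9 and Hoxc10, known from subcutaneous fat, had peaks of low fold, as did Hoxc8. Hoxc8 was at 1.65 in the vehicle and 1.74 in the entacapone list. Hoxc9 was at 2.17 and 1.78, and the Hoxc10 peak found in both at 1.80 and 1.66. By midpoint, none of the peaks of these 3 genes ranked above percentile 23.4 of the vehicle list or 5.82 of the entacapone list. Low folds were not particular to them: Hoxa7 was at 1.68 and 1.92, and Hoxc5 at 1.70 in the entacapone list. Placed by any overlap, Hoxc9 had 2 peaks in each list, because 1 more peak per list, with folds of 3.35 and 3.03, reached into its span from upstream. The peaks of the Hoxc cluster as a whole had the lowest median fold of the 4 clusters, 2.67 and 2.18, against 3.38 and 3.64 in Hoxa. A fold depends on how much input lies under a peak, and that level was not analysed here.

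**Figure D3:**
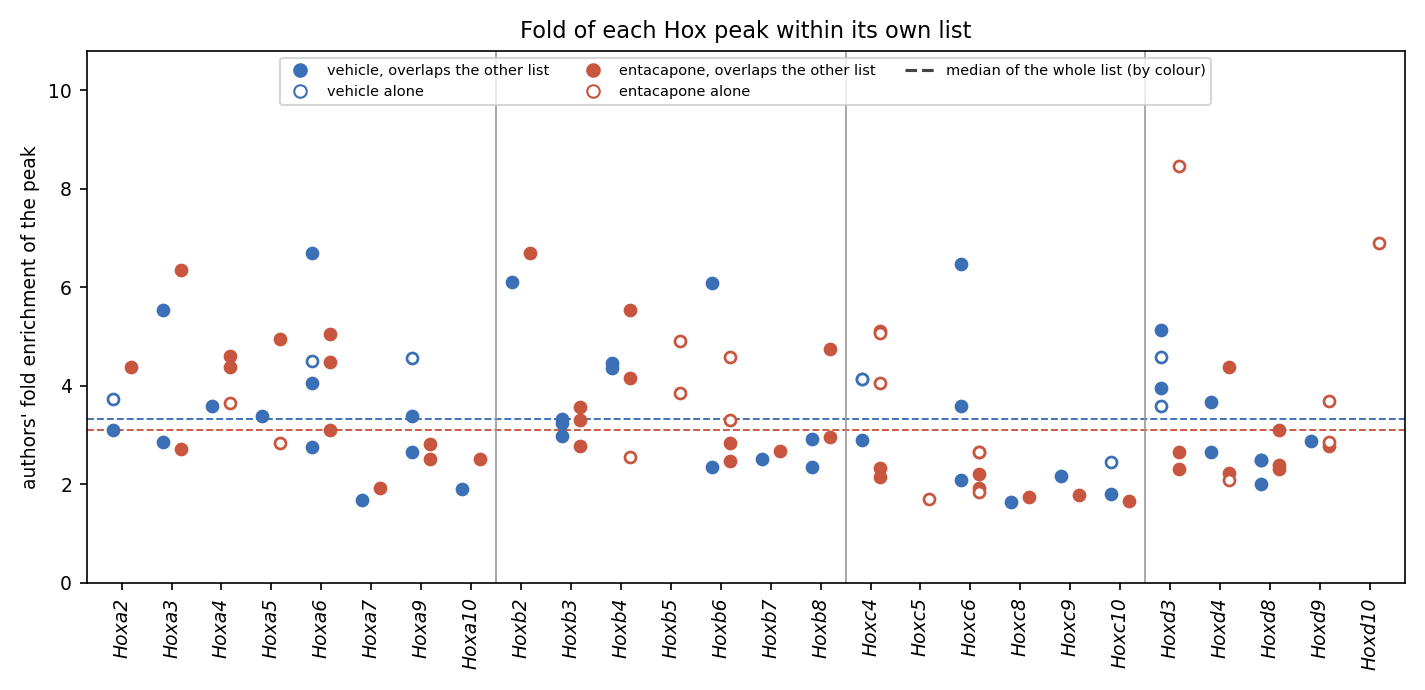
The authors' fold enrichment (linear) of each Hox peak, by gene, in the vehicle list (blue) and the entacapone list (red); filled points overlap a peak of the other list, open points do not, and dashed lines are the median fold of each whole list. Hoxa7, Hoxc8, Hoxc9 and Hoxc10 sit near the bottom in both lists, and the highest point is the Hoxd3 peak at 8.46.

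With all deposited peaks, most Hox peaks were found in both lists. An entacapone counterpart was found for 39 of the 46 vehicle peaks, and a vehicle counterpart for 40 of the 58 entacapone peaks. Peaks in 1 list alone thus made up 15.2% of vehicle and 31.0% of entacapone Hox peaks, against 21.3% and 44.1% of all peaks, or 20.5% and 43.0% of those in protein-coding spans. This depended on which peaks entered. At 22860 peaks per list 18 of 46 vehicle and 15 of 44 entacapone peaks were in 1 list alone. Among peaks with a fold of at least 4 these were 8 of 14 and 13 of 19, since a counterpart below that fold no longer counted. The shares of all peaks at these settings were not computed, so whether Hox peaks differ from the lists there is not known. The midpoints of overlapping pairs lay a median of 18 bases apart and at most 188. By number, 14 of the 18 entacapone-alone peaks lay in paralogs 4 to 6, 1 in Hoxd3 and 3 in paralogs 9 and 10. Paralogs 4 to 6 held 31 entacapone peaks, so 45.2% of these were in that list alone, near the 44.1% of all entacapone peaks. The entacapone list held 1.26 times as many Hox peaks as the vehicle list, less than the 1.39 of the whole lists, and 11 of the 26 peak-bearing genes had more, 10 had equal numbers and 5 had fewer. That is 42.3%, 38.5% and 19.2%, against 55.3%, 29.3% and 15.3% of all protein-coding genes with a peak. Over all 21900 genes, with or without a peak, 28.5% had more and 7.9% fewer. At 22860 peaks per list, where the whole lists are equal in size by construction, the Hox ratio turned to 0.957. At either of these settings the Hox ratio was below that of the whole lists, at the second by 44 against 46 peaks. Among peaks with a fold of at least 4 it was above that of the whole lists. There the Hox ratio was 1.36, and the whole lists held 7988 vehicle and 9418 entacapone peaks. In the equal lists 7 genes had more entacapone and 11 more vehicle peaks, and the shares of all genes at that setting were not computed. Peaks without a counterpart were narrower, with median widths of 78 (vehicle) and 91 bp (entacapone), against 117 and 136 bp for overlapping Hox peaks, and the whole lists showed the same order (80 and 85 against 133 and 152 bp).

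Within genes, Hox peaks lay mostly toward the 3′ end. Past 66.7% of the span lay 29 of 46 vehicle peaks (63.0%) and 34 of 58 entacapone peaks (58.6%), against 61.7% and 59.3% of the peaks of all protein-coding genes whose strand was known. Within 1 kb of the 3′ end lay 41.3% and 43.1% of Hox peaks, against 17.8% and 17.4%, but Hox spans are short, with a median of 3.74 kb against 17.1 kb, so that distance covers more of a Hox gene. Hoxa3, Hoxa4, Hoxa7, Hoxa10, Hoxb3, Hoxb6, Hoxb7, Hoxb8, Hoxc4, Hoxc9, Hoxc10 and Hoxd4 held all of their vehicle peaks past 66.7% of the span. Shared peaks in the first 33.3% of the span lay in Hoxd3, on the start, in Hoxd8 (21.8% and 21.3%), in Hoxa9 (30.7% in both lists), and in Hoxa5, Hoxb2 and Hoxc6, at 10.4%, 19.2% and 3.55% of the span in the vehicle list and 6.25%, 18.4% and 3.53% in the entacapone list. Strand came from the promoter table for 22 genes and was taken as that of the cluster for the others.

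**Figure D4:**
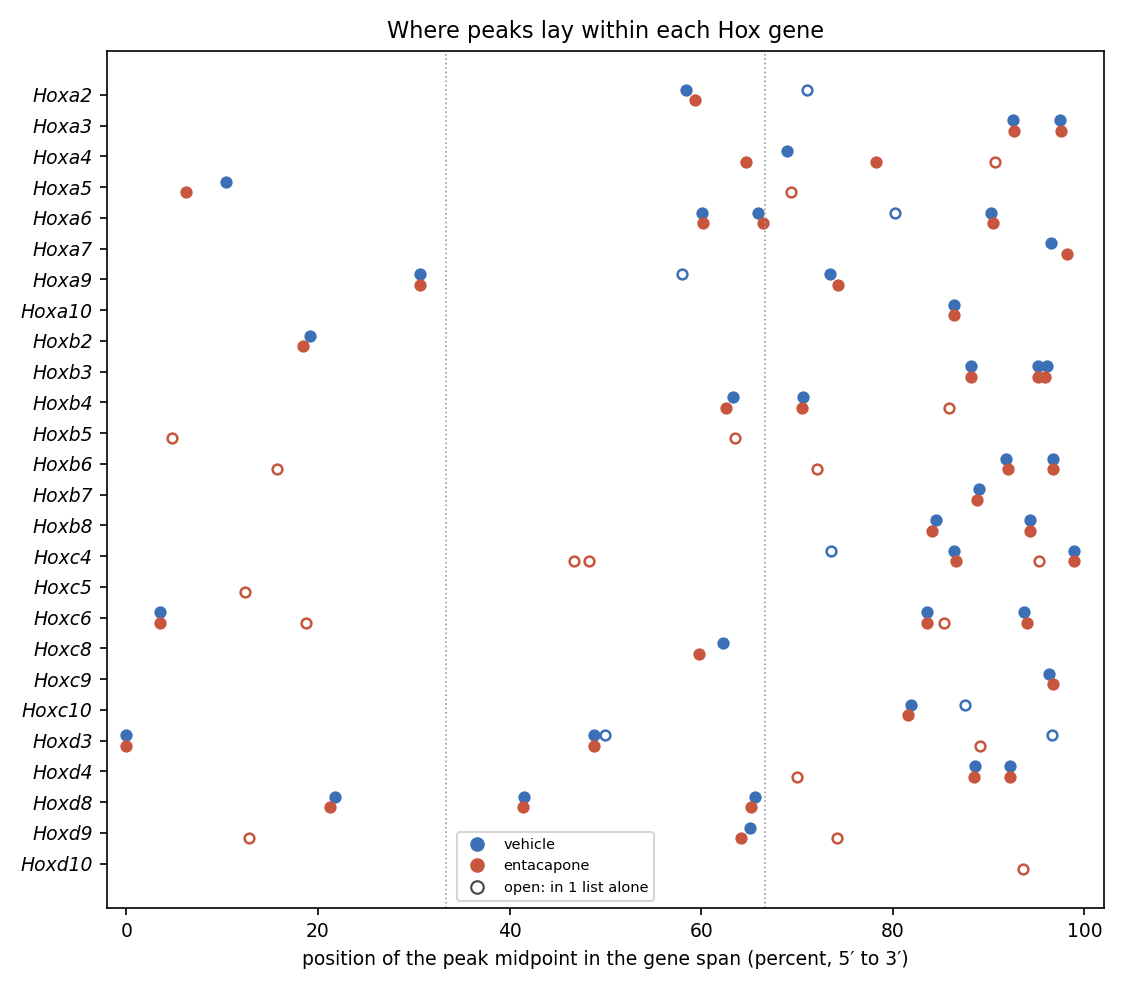
Position of each peak midpoint in its Hox gene as a percentage of the span from 5′ to 3′, vehicle in blue and entacapone in red; open points are peaks in 1 list alone, and dotted lines mark 33.3% and 66.7%. Of the 46 vehicle points 29, and of the 58 entacapone points 34, lie right of the second dotted line.

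The clusters also hold noncoding RNA genes, many of them antisense to Hox genes, and the libraries' kit does not keep strand. A peak in overlapping spans therefore cannot be given to one of the genes. The spans of noncoding genes held 20 of the 46 vehicle peaks (43.5%) and 28 of the 58 entacapone peaks (48.3%). They held 2 of 7 vehicle-alone and 9 of 18 entacapone-alone Hox peaks. The share of all peaks in such spans was not computed, so these counts do not show a trait particular to Hox genes. Hoxb5os covered all peaks of Hoxb5 and Hoxb6, Hoxaas3 those of Hoxa5 and Hoxa6, Hoxb3os those of Hoxb2 and Hoxb3, and Gm30528 those of Hoxc4. Without such peaks 26 vehicle and 30 entacapone peaks remained, in 14 and 16 genes. Hotair, Hottip, Hotairm1 and Hotairm2, long noncoding RNAs of the Hox clusters, had 0 peaks in either list. Haglr, downstream of Hoxd3, had 1 in each list, at chr2:74750210-74750314 and chr2:74750250-74750300. Of 25 long noncoding genes of the clusters, 8 held a vehicle peak and 9 an entacapone peak. Their spans lie wholly within a cluster, which leaves out Gm30528, except for Hottip, which was taken by its symbol and lies beyond Hoxa13. The share of all long noncoding genes with a peak was not computed.

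Outside the Hox spans, 8 vehicle and 9 entacapone peaks lay within the clusters. A run of 4 lay just upstream of the Hoxc9 span in each list and all of them overlapped between the lists. The vehicle peaks were at chr15:102975661-102975830, chr15:102975971-102976296, chr15:102976511-102976845 and chr15:102976985-102977071, with midpoints 1286, 898, 354 and 4 bases before the span and folds of 3.02, 2.32, 2.25 and 3.35. The entacapone midpoints were 1266, 901, 406 and 48 bases before it, with folds of 3.0, 2.32, 2.47 and 3.03. By midpoint Hoxc9 thus had 1 peak in each list inside its RefSeq span and 4 before it, and the last of the 4 extended past the start of the span at 102977032. Another shared peak lay upstream of Hoxb6, with a midpoint 195 bases before the span and a fold of 7.73 in the vehicle list, and 171 bases and 4.71 in the entacapone list.

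The clusters also encode 6 microRNA genes, and 0 of them held a peak midpoint in either list. Their mature sequences are shown because they group by seed and target Hox transcripts in known cases: miR-10a and miR-10b share a seed, as do miR-196a, encoded in both Hoxb and Hoxc, and miR-196b. The sequences are from RefSeq (GRCm38.p6), 5′ to 3′, with the seed, bases 2 to 8, in capitals.
mmu-miR-10a-5p: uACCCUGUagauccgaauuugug
mmu-miR-10b-5p: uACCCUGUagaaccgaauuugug
mmu-miR-196a-5p: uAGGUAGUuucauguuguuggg
mmu-miR-196b-5p: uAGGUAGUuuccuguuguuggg
mmu-miR-615-3p: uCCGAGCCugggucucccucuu
The peak nearest to a microRNA gene was the entacapone-alone peak of Hoxc5, 433 bases from Mir615. The next was an entacapone-alone peak in Hoxd4, 839 bases from Mir10b, and the other gaps were at least 2054 bases. Mature microRNAs have no poly(A) tail and are not measured in these libraries.

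Partners and regulators of Hox proteins were listed for comparison. Of all protein-coding genes 40.2% had a vehicle and 49.0% an entacapone peak, and 28.5% had more and 7.9% fewer entacapone peaks. Of those with a peak in either list, 55.3% had more and 15.3% fewer, the nearer comparison for lists in which most genes had a peak. Of 9 TALE homeodomain cofactors, which bind DNA together with Hox proteins, 6 had a vehicle and 7 an entacapone peak, with Meis2 at 4 peaks in each list. Of 19 Polycomb genes, which keep Hox genes silent, 17 and 18 had a peak, with 39 peaks in each list, 6 genes with more and 6 with fewer in the entacapone list. Of 11 trithorax and MLL genes, which keep Hox genes active, 10 and 11 had a peak. They held 63 vehicle and 78 entacapone peaks, where the whole lists differ by 1.39 times, led by Kmt2a, the MLL methyltransferase, at 14 and 19, whereas Kdm6b, a demethylase of the Polycomb mark, had 7 and 3. Of 18 other depot position genes, 12 and 13 had a peak, and 6 had more and 2 had fewer in the entacapone list. Irx5 was at 4 and 5 and Tbx15 at 2 and 3, whereas En1 was at 5 and 4.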

How the data were processed

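The members, by a rule on names, and the gene lists were chosen with earlier results of these data known. Fragmented mRNA was pulled down with a polyclonal anti-m6A antibody and sequenced from TruSeq libraries, per the labels' protocols. TopHat2 2.1.1, MACS2 and mm10 are named in the submitters' processing notes, and the sources used here give no peak threshold. In the deposited peak lists each peak has a position and an unlabelled number, read as the authors' linear fold (a ratio of IP over input). The deposited input values are raw read counts, used here only for their totals, because 0 Ensembl identifiers were paired with symbols; the planned ratios of Hox input levels were not run. Peaks were assigned and overlapped (at least 1 bp) with Python 3.11.15 and pandas 2.3.3, by code tested on simulated peaks, where counts of all 39 genes were recovered. By the rule for named genes, each Hox gene with a peak is described with its peak of highest fold in each list and its peaks in 1 list alone. Some items are not reported here. With 1 library per group nothing was tested. Alternatives covered peak number, fold, placement, sharing and noncoding spans.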

Additional observations from a re-analysis of the deposited data

How the results depend on the processing

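Of 70 alternative summary values, 59 stayed within 1.5 times the reported value, 10 moved further and 1 turned. At 22860 peaks of highest fold per list the ratio of entacapone over vehicle Hox peaks turned from 1.26 to 0.957, and vehicle-alone peaks went from 7 to 18. That setting makes the whole lists equal in size, where with all peaks they differ by 1.39 times. Peaks with a fold of at least 4 numbered 14 in 9 genes (vehicle) and 19 in 14 genes (entacapone), a ratio of 1.36. Without peaks in noncoding spans, an alternative chosen after seeing the data, 26 and 30 peaks in 14 and 16 genes and 9 entacapone-alone peaks were left. Of 468 alternative counts for single genes, 84 moved, 39 of them at the fold minimum. The settings at a fold of 4 and without noncoding spans drop peaks by construction, and the setting of 22860 peaks drops entacapone peaks. No paired analysis was possible because each group has 1 library. Other scalings, filters and intervals for Hox input levels were not run, since identifiers were not paired with symbols. IP depth is unknown, so peak numbers of the lists cannot be set on 1 scale.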
